A study of Mus musculus with 14 samples.

Results

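The genes of the major histocompatibility complex (MHC, called H2 in mice) and of antigen presentation were examined in hearts of mice on a high-fat diet (HFD). Members were all symbols with the prefix H2- together with 18 genes named singly, and each symbol was read from its most abundant transcript. This gave 33 of the 13303 symbols listed in the deposited tables, 16 by prefix and 17 by name. Psme2 was named too but is not analysed here. By role, 12 members belong to the class I pathway, 9 to the class II pathway, 11 to peptide supply and loading, and 1 (H2-Ke6, a hydroxysteroid dehydrogenase gene that lies within the MHC) to neither class. In the genome build GRCm38 (GENCODE M21), 21 members lie on chromosome 17 between 33915899 and 37274484, and 12 lie on other chromosomes.

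Class I molecules consist of a heavy chain, the light chain beta-2-microglobulin and a peptide. The peptide is cut by the proteasome in the cytosol, pumped into the endoplasmic reticulum by the TAP transporter and loaded there, and nearly every nucleated cell displays such molecules to CD8+ T cells. Class II molecules consist of an alpha and a beta chain, travel with the invariant chain to lysosomes, receive peptides of engulfed proteins there and are displayed to CD4+ T cells. They are made mainly by macrophages, dendritic cells and B cells, and in the heart chiefly by resident macrophages. Interferon raises both pathways, through the transactivators Nlrc5 for class I and Ciita for class II.

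Whole hearts were compared in 2 experiments. All came from male mice, described as C57BL/6J, that had received the HFD, with 60% of its energy from fat, for 12 weeks from an age of 7 to 9 weeks. In the first, 4 hearts (CTRP9_609, CTRP9_610, CTRP9_611 and CTRP9_620) came from wild-type mice injected with 1e12 vector genomes of AAV9 carrying murine C1qtnf9, which encodes CTRP9 (AAV-CTRP9), and 3 hearts (Luc_614, Luc_615 and Luc_624) from wild-type mice given the same dose of AAV9 with Renilla luciferase (AAV-Luc). Both vectors use a troponin T promoter, so the transgene is made in cardiomyocytes, and every heart of this experiment had received a virus. In the second, hearts of 4 mice without CTRP9 (KO) were set against those of 3 wild-type (WT) mice, with no vector. No heart is shared between the comparisons. C1qtnf9 had 44.3 to 109 CPM (reads scaled to library size) in AAV-CTRP9 hearts, against 16.0 to 26.2 CPM in AAV-Luc hearts, and 0 to 2 reads per KO heart, against 481 to 498 reads per WT heart. Library totals were 23626917 to 28509220 reads in AAV-CTRP9 hearts and 26342180 to 30262264 in AAV-Luc hearts (scaled totals), and 15587701 to 18959587 in KO hearts and 14978278 to 18377715 in WT hearts. One AAV-Luc library stood apart. The deviation of its genes from the mean of all hearts correlated with their GC content, with a Spearman coefficient of 0.52 across genes in Luc_614, against -0.27 to -0.11 in the other 6 hearts. Genes are not independent replicates.

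All 33 members were measured in the AAV experiment, and none passed the test there. Class II genes were lower on average in AAV-CTRP9 hearts, but not once CTRP9_620 and Luc_624, picked after their values were seen, were left out. Beta-2-microglobulin (B2m) and cathepsin S (Ctss) were lower in every AAV-CTRP9 heart than in any AAV-Luc heart, whereas the calnexin gene Canx was higher. Of all symbols, 4.54% were lower and 4.49% higher without overlap, so 2 and 1 of 33 members are close to the background. With limma and Benjamini-Hochberg adjustment, 0 of 33 members had an adjusted p under 0.05, where 0.0151% of all 13219 symbols did (2 symbols, neither of them a member). At an unadjusted p under 0.05, 2 members were lower (B2m and Ctss, against 4.36% of all symbols) and 1 was higher (Canx, against 4.3%). The quasi-likelihood test of edgeR on recovered reads gave 3 lower and 1 higher at an unadjusted p under 0.05. At that level it called 1131 of all 13219 symbols, in either direction. DESeq2 gave 2 lower and 1 higher, and it called 919 of all symbols at that level. Neither called a member after adjustment, where edgeR called 2 of all symbols and DESeq2 called 61. The log2 fold change of AAV-CTRP9 over AAV-Luc was below 0 for 9 of 9 class II genes (median -0.37), for 9 of 12 class I genes (median -0.16) and for 6 of 11 genes of peptide supply and loading (median -0.01). It was below 0 for 43% of all symbols, with a median of 0.03. Members were assigned to these classes after their values had been seen. Without CTRP9_620 and Luc_624 the class II median was 0.02, and 4 of 9 class II genes were below 0. These 2 hearts were picked after seeing that they held the lowest and the highest values of the class II chains. Leaving such hearts out raises the fold change of those genes by design, so it cannot test the difference.

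**Figure D1:**
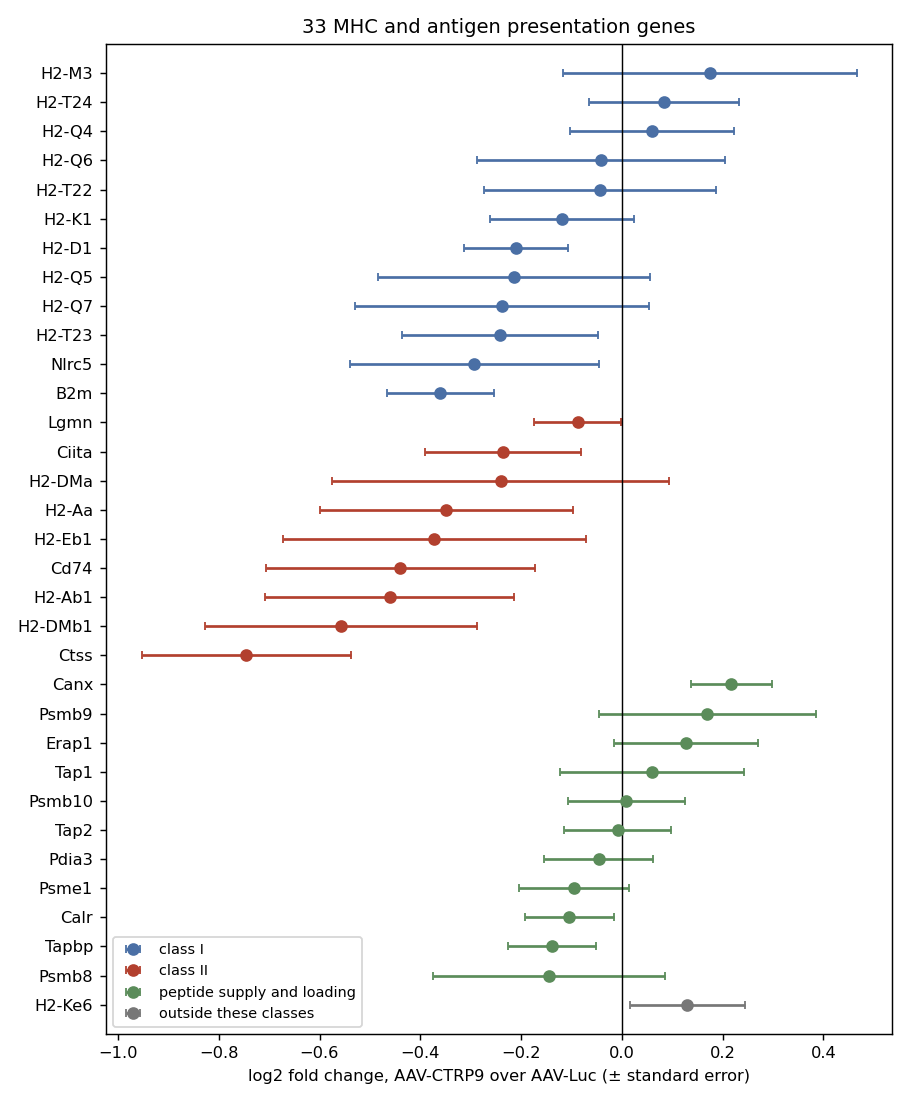
The log2 fold change of AAV-CTRP9 over AAV-Luc hearts is plotted on the x axis for the 33 genes, 1 per row, with bars for the standard error of the limma fit and colours for the class. All 9 class II genes lie left of 0, from -0.09 for Lgmn to -0.75 for Ctss, while genes of peptide supply and loading lie on both sides between -0.14 and 0.22.

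The class II chains and Cd74 were among the members that varied most between hearts. H2-Aa and H2-Ab1 encode the alpha and beta chains of I-A, H2-Eb1 the beta chain of I-E, and Cd74 the invariant chain that escorts them. C57BL/6 mice make no I-E alpha chain, so H2-Eb1 has no partner at the cell surface. H2-Aa (chromosome 17, 34282744 to 34287823) had 19.0, 21.7, 19.0 and 10.4 CPM in AAV-CTRP9 hearts, against 17.8, 18.3 and 30.6 CPM in AAV-Luc hearts. H2-Ab1 (chromosome 17, 34257689 to 34269419) had 18.1, 24.3, 19.9 and 12.1 CPM in AAV-CTRP9 hearts, against 20.9, 19.9 and 36.9 CPM in AAV-Luc hearts. For both, the lowest value was that of CTRP9_620 and the highest that of Luc_624, and the other 5 hearts intermingled. H2-Eb1 (chromosome 17, 34305867 to 34316674) had 10.2, 11.1, 9.37 and 5.34 CPM in AAV-CTRP9 hearts, against 8.46, 8.89 and 18.9 CPM in AAV-Luc hearts. Cd74 had 58, 66.8, 54.3 and 30.9 CPM in AAV-CTRP9 hearts, against 52.0, 60.9 and 101 CPM in AAV-Luc hearts. These 2 genes showed the same order, with CTRP9_620 lowest, Luc_624 highest and overlapping groups. Of all symbols, 2.27% had both their lowest value in CTRP9_620 and their highest in Luc_624, with 10.3% lowest in CTRP9_620 and 15.5% highest in Luc_624.

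The log2 fold changes were -0.35 for H2-Aa (standard error 0.25), -0.46 for H2-Ab1 (0.25), -0.37 for H2-Eb1 (0.30) and -0.44 for Cd74 (0.27), with limma adjusted p from 0.62 to 0.74. Each of these differences was smaller than the range of log2 levels within either group. Without Luc_624 the fold changes were -0.10 for H2-Aa, -0.18 for H2-Ab1, 0.00 for H2-Eb1 and -0.16 for Cd74, and without CTRP9_620 they were -0.12 for H2-Aa, -0.27 for H2-Ab1, -0.14 for H2-Eb1 and -0.20 for Cd74. With both hearts left out, all 4 were above 0, at 0.14 for H2-Aa, 0.02 for H2-Ab1, 0.23 for H2-Eb1 and 0.08 for Cd74. A rise follows from leaving out the lowest AAV-CTRP9 and the highest AAV-Luc value, so this is a description only. The summed level of the 4 genes was 105, 124, 103 and 58.7 CPM in AAV-CTRP9 hearts, against 99.1, 108 and 188 CPM in AAV-Luc hearts. Thus the range within each group was wider than the gap between the group means of 97.6 ± 27.6 CPM (SD, n = 4) in AAV-CTRP9 hearts and 132 ± 48.8 CPM (SD, n = 3) in AAV-Luc hearts.

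The 4 genes kept nearly constant proportions while their levels moved by 2.93-fold to 3.53-fold between the lowest and the highest heart. The ratio of Cd74 to H2-Ab1 in CPM was 3.21, 2.75, 2.73 and 2.55 in AAV-CTRP9 hearts, against 2.49, 3.06 and 2.75 in AAV-Luc hearts. The Pearson correlation of log2 CPM over the 7 hearts was 0.96 to 0.99 in the 6 pairs of these genes. These points share libraries, and the 2 outer hearts weigh heavily in them. By comparison, the 3 pairs of the heavy chain genes H2-K1, H2-D1 and H2-Q4 had coefficients of 0.63 to 0.92. Among 13092 other symbols with a mean of at least 1 CPM, those most like the mean of the 4 class II genes were Abat, Limd2, Cyrib, Nedd9 and Slc16a6, with Pearson coefficients of 0.97 to 0.99 over the same 7 hearts. Abat, which encodes an enzyme that breaks down the transmitter GABA, had 4.91, 5.13, 4.56 and 3.25 CPM in AAV-CTRP9 hearts, against 4.76, 4.53 and 7.25 CPM in AAV-Luc hearts.

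The promoters of the class II genes are shown because these genes moved together from heart to heart. Their X and Y boxes are the elements through which Ciita acts. The sequences are RefSeq windows of 300 bases in GRCm38.p6, from 250 bases before to 50 bases after the annotated start, and a window was found for 26 of the 33 members. Capitals mark the Y box with its first flanking base (GATTGG) and the element TGACGT that resembles part of the X box, on either strand.
H2-Aa (chr17:34287774-34288073, - strand): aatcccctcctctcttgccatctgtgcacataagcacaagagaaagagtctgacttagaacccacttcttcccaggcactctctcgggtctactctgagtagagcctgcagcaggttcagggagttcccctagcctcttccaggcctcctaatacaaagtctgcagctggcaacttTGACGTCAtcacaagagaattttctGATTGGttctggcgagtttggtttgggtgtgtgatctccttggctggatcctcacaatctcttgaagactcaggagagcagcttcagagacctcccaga
H2-Eb1 (chr17:34305617-34305916, + strand): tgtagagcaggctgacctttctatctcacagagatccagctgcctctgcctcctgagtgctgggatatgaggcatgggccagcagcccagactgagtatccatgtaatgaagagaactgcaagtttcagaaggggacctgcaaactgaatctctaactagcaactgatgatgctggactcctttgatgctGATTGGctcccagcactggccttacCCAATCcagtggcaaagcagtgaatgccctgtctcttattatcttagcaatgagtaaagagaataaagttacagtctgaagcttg
GATTGG starts 49 bases before the start site in H2-Aa, 60 in H2-Eb1 and 62 in H2-DMb1, on the strand of the gene. It was present on either strand in 16 of 26 member windows, 3 of 6 of class II and 8 of 9 of class I, and in 16.1% of all 32851 windows. The windows of Psmb9 and Tap1 overlap and hold the same site, which is counted in both. The 4 patterns shown in this text were picked from 17 looked for in the members' promoters. The share among members is therefore a description only. H2-Eb1 and H2-DMb1 also share the run AACTGATGATGCT, which begins 89 bases before the start in H2-Eb1 and 92 bases before it in H2-DMb1. TGACGT was in 5 of 26 member windows and in 7.51% of all windows. These are matches of letters, with no measurement of binding.

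**Figure D2:**
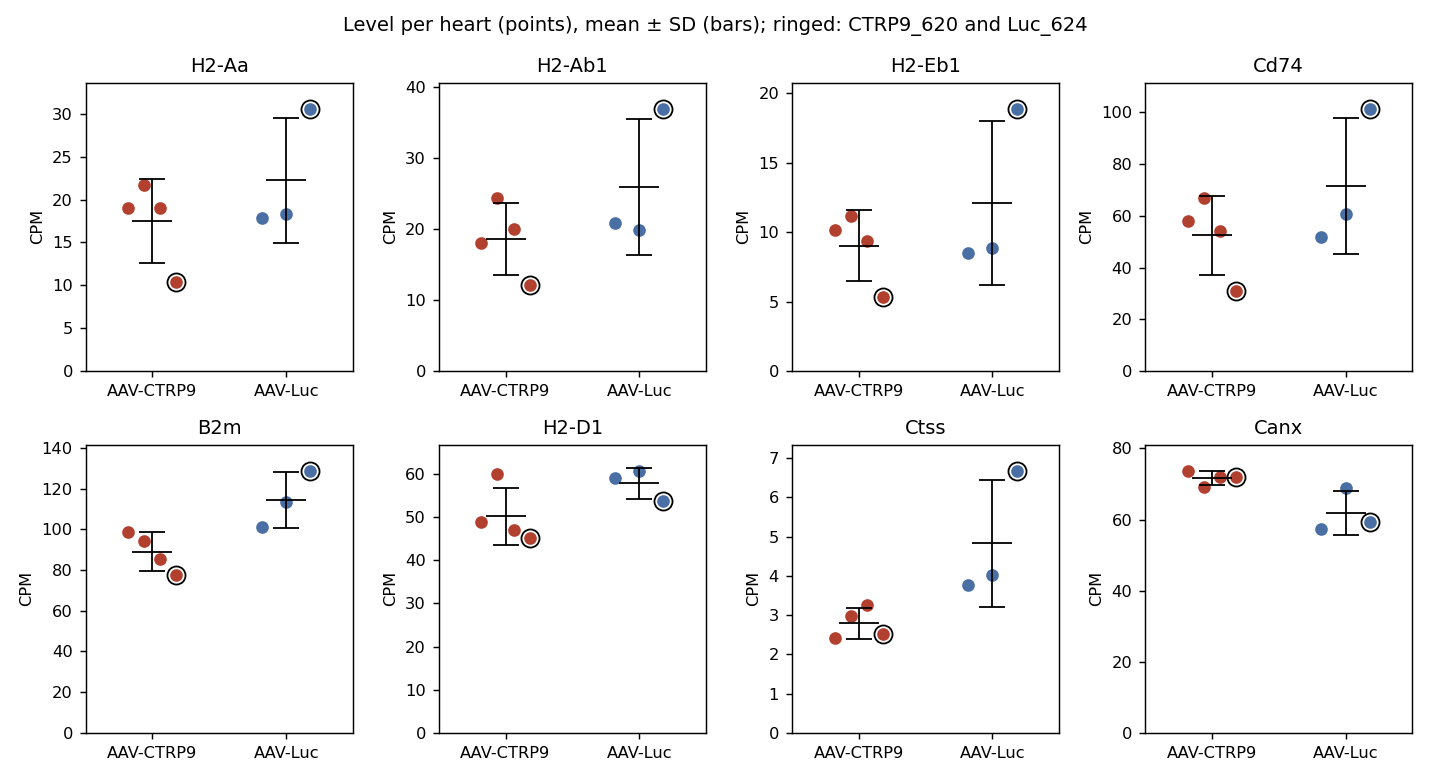
CPM on the y axis is plotted for each heart (points) with the mean and SD (bars) of the 4 AAV-CTRP9 and the 3 AAV-Luc hearts for 8 genes, and rings mark CTRP9_620 and Luc_624. The ringed hearts hold the lowest and the highest value of H2-Aa, H2-Ab1, H2-Eb1, Cd74 and B2m, and the groups do not overlap for B2m, Ctss and Canx.

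The remaining class II genes differed in how they varied. Ctss (cathepsin S, which trims the invariant chain; chromosome 3, 95526786 to 95556403) had 2.41, 2.97, 3.26 and 2.51 CPM in AAV-CTRP9 hearts, against 3.77, 4.03 and 6.68 CPM in AAV-Luc hearts. The groups did not overlap, as in 4.54% of all symbols in this direction. Its log2 fold change was -0.75 (standard error 0.21), the lowest of all members, with an unadjusted p of 0.0044 and a limma adjusted p of 0.398. It was -0.49 without Luc_624 and -0.44 without both CTRP9_620 and Luc_624. Without Luc_614, the library with the GC trend, the fold change was -0.90 with a limma adjusted p of 0.0454, and 150 symbols passed instead of 2. Luc_614 held the lowest AAV-Luc value of Ctss, so leaving it out widens the difference by design. With all hearts kept and GC and length trends removed, the fold change was -0.78 with a limma adjusted p of 0.236. The levels of Ctss rest on 57 to 176 reads per heart.

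H2-DMa and H2-DMb1 encode the exchange factor that swaps the invariant chain fragment for a peptide. H2-DMb1 had 0.97, 0.96, 1.26 and 0.99 CPM in AAV-CTRP9 hearts, against 1.29, 1.21 and 2.35 CPM in AAV-Luc hearts. The ranges overlapped by a single AAV-CTRP9 heart, CTRP9_611, and the log2 fold change was -0.56 (standard error 0.27, limma adjusted p = 0.596). H2-DMa had 2.84, 2.80, 1.72 and 1.13 CPM in AAV-CTRP9 hearts, against 2.31, 1.68 and 3.34 CPM in AAV-Luc hearts, and its log2 fold change was -0.24 (standard error 0.33) and 0.01 without Luc_624. Of the 50-base runs in the H2-DMb1 transcript, 27.2% also occur in another gene, H2-DMb2, so its reads can be split between the 2 genes. It had only 23 to 62 reads per heart.

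Ciita, the class II transactivator, did not share the spread of its targets. Ciita had 2.20, 2.76, 2.42 and 2.37 CPM in AAV-CTRP9 hearts, against 2.58, 3.21 and 2.85 CPM in AAV-Luc hearts, so its highest heart was 1.46-fold above its lowest. Neither CTRP9_620 nor Luc_624 was at an end of its range. Its log2 fold change was -0.24 (standard error 0.16, limma adjusted p = 0.681). Lgmn (legumain, a lysosomal protease) was the steadiest of all members, at 30.1 ± 1.56 CPM (SD, n = 4) in AAV-CTRP9 hearts and 32.1 ± 2.66 CPM (SD, n = 3) in AAV-Luc hearts, a difference of -0.09 on the log2 scale.

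The summed level of macrophage markers was lower in every AAV-CTRP9 heart than in any AAV-Luc heart. All 14 markers had a log2 fold change below 0, against 43% of all symbols. Of these, 8 were lower at an unadjusted p under 0.05, against 4.36% of all symbols, and 1, Lyz2, at a limma adjusted p under 0.05, against 0.0151%. This level was 316 to 351 CPM in AAV-CTRP9 hearts and 385 to 423 CPM in AAV-Luc hearts. Cx3cr1 alone gave 194 CPM of this on average in AAV-CTRP9 hearts and 199 CPM in AAV-Luc hearts. Its level was far lower in the KO experiment, as given below, and the reason was not tested. Without Cx3cr1 the sum was 150, 149, 142 and 144 CPM in AAV-CTRP9 hearts, against 203, 205 and 209 CPM in AAV-Luc hearts. C1qa, C1qb, C1qc, Csf1r and Lyz2 make up most of this sum. Taken singly, 7 of 14 markers were lowest in CTRP9_620, against 10.3% of all symbols, and 5 of 14 were highest in Luc_624, against 15.5%. Ccr2, a receptor of monocytes that enter tissue, had 1.40, 1.70, 1.19 and 0.81 CPM in AAV-CTRP9 hearts, against 1.06, 1.11 and 2.70 CPM in AAV-Luc hearts, with the same lowest and highest heart as the class II chains. Of 8 dendritic cell markers only Zbtb46 and Clec9a were in the table, with a sum of 13.4 to 16.3 CPM in AAV-CTRP9 hearts and 12.2 to 16.0 CPM in AAV-Luc hearts. Itgax, Flt3 and Xcr1 were not. Of the B cell markers, Ighm and Ighd were in it, with a sum of 6.89 to 10.03 CPM in AAV-CTRP9 hearts and 5.53 to 6.61 CPM in AAV-Luc hearts, while Ms4a1 was not. The 8 general leukocyte markers summed to 36.6 to 48.3 CPM in AAV-CTRP9 hearts and 50.8 to 59.4 CPM in AAV-Luc hearts. Of them 4, Laptm5, Lcp1, Tyrobp and Fcer1g, were lower at an unadjusted p under 0.05, against 4.36% of all symbols. The groups overlapped for Ptprc (log2 fold change 0.25, standard error 0.45), Coro1a (-0.01), Cd52 (-0.18) and Cd53 (-0.16). The part of macrophages, fibroblasts and other cells in the levels of class II genes, Ctss and B2m was not tested, and in RNA of whole hearts fewer cells of a type and less RNA per cell cannot be told apart. The summed level of fibroblast markers also separated the groups. The 7 of them summed to 357 to 398 CPM in AAV-CTRP9 hearts and 432 to 498 CPM in AAV-Luc hearts. Of them 3, the collagen genes Col1a1, Col1a2 and Col3a1, were lower at an unadjusted p under 0.05, against 4.36% of all symbols. The other markers, Pdgfra (log2 fold change 0.13), Dcn (-0.03), Lum (-0.21) and Tcf21 (-0.09), overlapped between the groups. Cardiomyocyte markers, which define the tissue, summed to 22563 to 23208 CPM in AAV-CTRP9 hearts and 18868 to 21779 CPM in AAV-Luc hearts. All 10 had a log2 fold change above 0, and 2 were higher at an unadjusted p under 0.05, against 4.3% of all symbols. The 10 endothelial markers summed to 503 to 522 CPM in AAV-CTRP9 hearts and 501 to 559 CPM in AAV-Luc hearts. Of them, 2 were lower and 1 higher at that level.

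**Figure D3:**
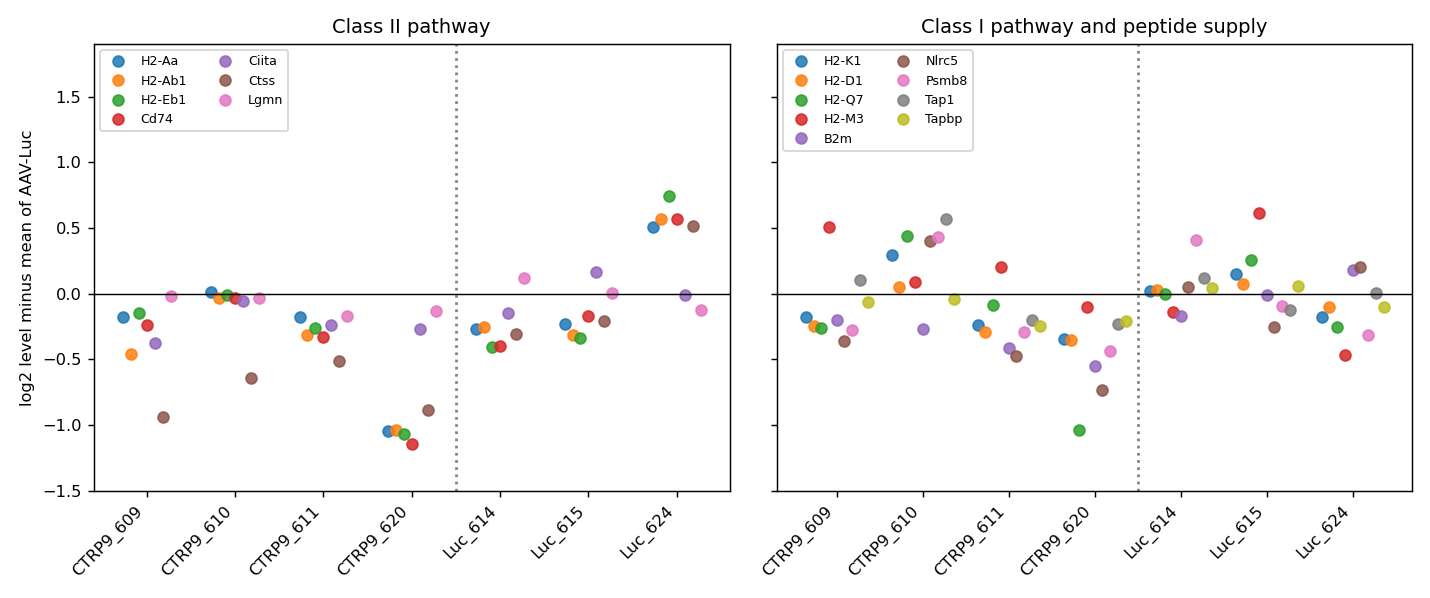
The log2 level of each gene minus its mean in AAV-Luc hearts is plotted on the y axis for the 7 hearts on the x axis, with AAV-CTRP9 hearts left of the dotted line. H2-Aa, H2-Ab1, H2-Eb1 and Cd74 sit together in each heart, from -1.15 to -1.04 in CTRP9_620 and from 0.51 to 0.75 in Luc_624. The other genes of the left panel lie apart from them in CTRP9_620, at -0.88 for Ctss, -0.27 for Ciita and -0.13 for Lgmn. The genes of the right panel run in that heart from -1.04 for H2-Q7 to -0.10 for H2-M3.

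In the class I pathway, the light chain gene B2m was the most highly expressed member per length, at 116 CPM per kilobase of transcript over all hearts, ahead of Cd74 at 49.5 CPM per kilobase. The classical heavy chain genes had 25.4 CPM per kilobase (H2-D1) and 24.6 CPM per kilobase (H2-K1). B2m (chromosome 2, 122147686 to 122153083) had 98.7, 94.3, 85.4 and 77.5 CPM in AAV-CTRP9 hearts, against 101, 113 and 129 CPM in AAV-Luc hearts. Every AAV-CTRP9 heart lay below every AAV-Luc heart, by a narrow gap between CTRP9_609 and Luc_614. The log2 fold change was -0.36 (standard error 0.11), with an unadjusted p of 0.0061 and a limma adjusted p of 0.417. It ranged from -0.45 to -0.27 as single hearts were left out. Without Luc_614 the limma adjusted p was 0.0360, in a fit where 150 symbols passed instead of 2. Luc_614 held the lowest AAV-Luc value of B2m, so leaving it out widens the difference by design. With all hearts kept and GC and length trends removed, the fold change was -0.49 with a limma adjusted p of 0.135. Without both CTRP9_620 and Luc_624 it was -0.21.

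The heavy chains were closer between the groups than B2m. H2-D1 (chromosome 17, 35262730 to 35267499) had 48.7, 59.8, 47.0 and 45 CPM in AAV-CTRP9 hearts, against 58.9, 60.7 and 53.7 CPM in AAV-Luc hearts. H2-K1 (chromosome 17, 33996017 to 34000347) had 35.3, 48.9, 33.8 and 31.4 CPM in AAV-CTRP9 hearts, against 40.6, 44.4 and 35.4 CPM in AAV-Luc hearts. CTRP9_610 lay within the AAV-Luc range for H2-D1 and above it for H2-K1, and the other AAV-CTRP9 hearts lay below that range for both genes. The log2 fold changes were -0.21 for H2-D1 (standard error 0.10, limma adjusted p = 0.599) and -0.12 for H2-K1 (standard error 0.14, limma adjusted p = 0.847). H2-K1 and H2-D1 are close in sequence, with 9.07% and 14.3% of their 50-base runs also found in other genes.

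The promoter of H2-K1 is shown with that of B2m because heavy and light chains form one molecule, and that of Ctss because it was the other gene that was lower in every AAV-CTRP9 heart. Capitals mark a kappaB site (GGGATTCCC), the Y box with its flanking base (GATTGG) and the core of an interferon-stimulated response element (GAAANNGAA), on either strand.
H2-K1 (chr17:34000298-34000597, - strand): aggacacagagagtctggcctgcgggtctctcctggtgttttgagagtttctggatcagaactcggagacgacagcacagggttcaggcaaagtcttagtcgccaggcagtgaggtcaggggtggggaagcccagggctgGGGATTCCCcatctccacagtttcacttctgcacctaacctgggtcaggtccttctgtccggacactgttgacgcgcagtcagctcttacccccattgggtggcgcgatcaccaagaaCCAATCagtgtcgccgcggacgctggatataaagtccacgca
B2m (chr2:122147437-122147736, + strand): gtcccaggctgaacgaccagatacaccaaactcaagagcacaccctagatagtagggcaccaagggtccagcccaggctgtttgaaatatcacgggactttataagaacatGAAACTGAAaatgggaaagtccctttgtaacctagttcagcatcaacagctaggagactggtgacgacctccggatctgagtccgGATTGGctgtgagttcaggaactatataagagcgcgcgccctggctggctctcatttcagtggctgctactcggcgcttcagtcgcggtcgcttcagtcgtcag
Ctss (chr3:95526536-95526835, + strand): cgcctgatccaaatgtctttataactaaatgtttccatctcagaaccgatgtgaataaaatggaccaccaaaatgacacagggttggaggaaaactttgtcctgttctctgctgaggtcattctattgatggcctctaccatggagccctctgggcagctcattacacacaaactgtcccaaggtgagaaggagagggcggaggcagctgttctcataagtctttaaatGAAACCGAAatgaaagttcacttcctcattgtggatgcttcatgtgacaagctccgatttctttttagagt
GGGATTCCC was in 4 of 26 member windows, those of H2-K1, H2-D1, H2-Q6 and H2-Q7, and in 0.353% of all windows. It lies in a run of 47 bases that H2-K1 and H2-D1 share. GAAANNGAA was in 6 of 26 member windows, those of B2m, Ctss, Erap1, H2-T22, H2-T23 and Psme1, and in 8.56% of all windows. It begins 139 bases before the start site in B2m and 21 bases before it in Ctss. Only exact matches were counted, so windows without the pattern, such as that of H2-K1, may still hold a variant of the element.

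The 8 nonclassical heavy chain genes had log2 fold changes of -0.24 to 0.17 (median -0.04), and their summed level was 26.6, 35.4, 28.1 and 21.6 CPM in AAV-CTRP9 hearts, against 29.2, 31.8 and 24.4 CPM in AAV-Luc hearts. The groups overlapped for each of them. H2-T23, which encodes a ligand of inhibitory receptors on natural killer cells, was at 3.80 ± 0.88 CPM (SD, n = 4) in AAV-CTRP9 hearts and 4.45 ± 0.70 CPM (SD, n = 3) in AAV-Luc hearts, a difference of -0.24 on the log2 scale (standard error 0.20). H2-M3, which presents formylated bacterial peptides, was at 1.22 ± 0.23 CPM in AAV-CTRP9 hearts and 1.12 ± 0.46 CPM in AAV-Luc hearts, a difference of 0.17 on the log2 scale (standard error 0.29). H2-Q4 was at 7.84 ± 1.70 CPM in AAV-CTRP9 hearts and 7.44 ± 0.91 CPM in AAV-Luc hearts. H2-Q7 was at 2.99 ± 1.20 CPM in AAV-CTRP9 hearts and 3.35 ± 0.60 CPM in AAV-Luc hearts. Nlrc5, the class I transactivator, had 2.58, 4.39, 2.39 and 1.98 CPM in AAV-CTRP9 hearts, against 3.44, 2.78 and 3.83 CPM in AAV-Luc hearts, a difference of -0.29 on the log2 scale (standard error 0.25). Its values in AAV-CTRP9 hearts lay on both sides of the AAV-Luc range. For 10 of the 33 members, more than 10% of the 50-base runs occur in other genes, up to 48.1% for H2-T22 and 79.8% for H2-Ke6, so the values of these genes are uncertain. For 16 members, among them the 3 class II chains, Cd74, B2m and Ctss, no run was shared.

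The highest heart varied among class I genes. CTRP9_610 was the highest of the 7 hearts for 6 of 12 class I genes and 4 of 11 genes of peptide supply and loading, where it was the highest for 11.4% of all symbols. It was the highest for 0 of 9 class II genes. Luc_615 was the highest for 3 class I genes and Luc_624 for 2, whereas Luc_624 was the highest for 7 of 9 class II genes. At the other end, CTRP9_620 was the lowest for 9 of 12 class I genes, for 5 of 9 class II genes and for 2 of 11 genes of peptide supply and loading, against 10.3% of all symbols.

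In peptide supply, the immunoproteasome subunits Psmb8, Psmb9 and Psmb10 replace the standard catalytic subunits where interferon acts. Psmb8 had 3.51, 5.77, 3.47 and 3.15 CPM in AAV-CTRP9 hearts, against 5.68, 3.997 and 3.42 CPM in AAV-Luc hearts. Psmb9 had 2.37, 2.83, 2.42 and 1.70 CPM in AAV-CTRP9 hearts, against 2.44, 2.10 and 1.63 CPM in AAV-Luc hearts, and Psmb10 was at 10.9 ± 0.96 CPM in AAV-CTRP9 hearts and 10.8 ± 1.38 CPM in AAV-Luc hearts. The 3 subunits overlapped between the groups, with log2 fold changes of -0.14 for Psmb8, 0.17 for Psmb9 and 0.01 for Psmb10. The transporter genes Tap1 and Tap2 had log2 fold changes of 0.06 (standard error 0.18) and -0.01 (standard error 0.11), Erap1, which trims peptides in the endoplasmic reticulum, 0.13 (standard error 0.14), and Tapbp, which tethers the heavy chain to the transporter, -0.14 (standard error 0.09). Psme1, a subunit of the proteasome activator, had -0.09 (standard error 0.11).

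The chaperones of peptide loading went different ways. Canx (calnexin; chromosome 11, 50293961 to 50325673) had 73.7, 69.2, 72.0 and 72.0 CPM in AAV-CTRP9 hearts, against 57.2, 69.0 and 59.4 CPM in AAV-Luc hearts. Every AAV-CTRP9 heart was above every AAV-Luc heart, as in 4.49% of all symbols, although CTRP9_610 and Luc_615 nearly met. The log2 fold change was 0.22 (standard error 0.08), with an unadjusted p of 0.0216 and a limma adjusted p of 0.530. Calr (calreticulin) was at 90.7 ± 9.58 CPM (SD, n = 4) in AAV-CTRP9 hearts and 97.1 ± 1.97 CPM (SD, n = 3) in AAV-Luc hearts, a difference of -0.10 on the log2 scale, and Pdia3, its partner disulfide isomerase, had -0.05. Calnexin and calreticulin serve the folding of many glycoproteins besides class I. H2-Ke6, the member outside both classes, differed by 0.13 on the log2 scale (standard error 0.11).

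The other genes of the pathway were read from lists chosen with earlier results of these data known. At an unadjusted p under 0.05, 4.36% of all symbols were lower and 4.3% higher. Of 18 other genes of class I peptide supply, 3 were lower and 2 higher at that level, none after adjustment. Of 18 genes that control MHC transcription, 3 were lower and 1 higher at that level. These were Irf8 (log2 fold change -0.51, standard error 0.18), Irf7 (-0.37, standard error 0.15), Irf9 (-0.34, standard error 0.14) and, on the higher side, Irf1 (0.27, standard error 0.11), an activator of class I promoters. The subunits Rfx5, Rfxank and Rfxap, which hold Ciita at class II promoters, had log2 fold changes of 0.06, -0.07 and 0.11. Of 12 other genes of class II processing, 2 were lower, Ctsz (-0.31, standard error 0.10) and Lamp1 (-0.19, standard error 0.08). None of 8 genes of interferon receptors and signalling, of 5 class I-like genes outside the MHC or of 5 costimulator genes reached an unadjusted p under 0.05 by limma. Of 13 partners on T and natural killer cells only Cd28 was in the table, and none of 7 T cell markers was.

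The deposited table of the KO experiment is limited to transcripts below a p-value threshold in this very comparison. Of the 33 members, 2 are in it, Psmb9 and Calr. Psmb9 was higher and Calr was lower in KO than in WT hearts. As a background, 8.67% of the symbols of the AAV table are listed. For the other members no KO value was analysed here, so no level of a class II gene, B2m or a classical heavy chain can be given. Since listed genes were picked for their difference between these very hearts, fitting them again with edgeR is a description and tests nothing anew. In that fit, 36.7% of the 1230 listed symbols were higher and 56.7% lower at an adjusted p under 0.05. The median log2 fold change of KO over WT across listed symbols was -0.23 with the authors' size factors, -0.18 with library totals, -0.11 with DESeq2 and -0.08 with upper quartile factors, and the calls moved from 452 higher and 698 lower to 476 higher and 141 lower with upper quartile factors.

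Psmb9 (chromosome 17, 34181987 to 34187764) encodes the interferon-inducible subunit that takes the place of a standard catalytic subunit. Its window is shown because it is the one member listed as higher in KO. It overlaps by 275 bases with the window of Tap1, whose start site lies 226 bases away on the other strand. Capitals mark GATTGG.
Psmb9 (chr17:34187281-34187580, - strand): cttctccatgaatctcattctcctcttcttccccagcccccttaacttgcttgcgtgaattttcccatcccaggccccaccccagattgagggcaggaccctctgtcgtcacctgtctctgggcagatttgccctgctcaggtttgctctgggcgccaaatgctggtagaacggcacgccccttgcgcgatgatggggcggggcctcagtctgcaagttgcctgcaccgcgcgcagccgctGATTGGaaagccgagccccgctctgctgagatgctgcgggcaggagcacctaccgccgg
Psmb9 had 65, 50, 66 and 83 reads in KO hearts, against 22, 59 and 30 reads in WT hearts. After scaling it was at 66.6, 52.8, 57.7 and 76.6 normalised counts in KO hearts, against 25.7, 54.6 and 31.0 in WT hearts. The WT heart with the highest value lay within the KO range, so the groups overlapped, while every KO heart was above every WT heart in 28% of listed symbols. The log2 fold change was 0.75 (standard error 0.25, edgeR adjusted p = 0.0280 among listed genes). It was 0.97 to 0.99 above the median of listed symbols under each of the 4 scalings. Another scaling moves all genes nearly alike, so this distance hardly changes by design and cannot test the difference. The columns of this table cannot be paired with animals, so its libraries are called KO_A to KO_D and WT_A to WT_C. The fold change was 0.56 and past the threshold no longer without WT_A (adjusted p = 0.0737), 0.63 without WT_C (adjusted p = 0.0608) and 0.65 without KO_D (adjusted p = 0.0621), and it was 1.15 without WT_B. Scaled to transcript length and library total (RPKM), its level was 4.77 ± 0.75 RPKM (SD, n = 4) in KO hearts and 2.71 ± 1.15 RPKM (SD, n = 3) in WT hearts.

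Calr (chromosome 8, 84841850 to 84846934), the soluble chaperone of class I loading and a calcium store of the endoplasmic reticulum, had 2739, 2878, 2871 and 3043 normalised counts in KO hearts, against 3820, 3506 and 3338 in WT hearts. Every KO heart was below every WT heart, as in 38.9% of listed symbols in this direction. The log2 fold change was -0.30 (standard error 0.07, edgeR adjusted p = 0.0188 among listed genes). It differed from the median of listed symbols by -0.07 under each of the 4 scalings, a distance that scaling hardly changes by design. With upper quartile factors it was -0.15 with an adjusted p of 0.0871, and with DESeq2 -0.18.

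**Figure D4:**
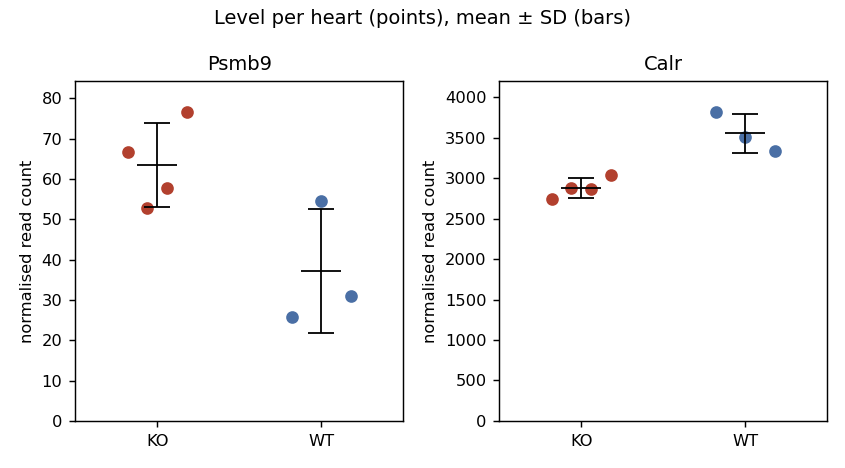
Normalised read counts on the y axis are plotted for each heart (points) with the mean and SD (bars) of the 4 KO and the 3 WT hearts for Psmb9 and Calr. For Psmb9, 1 WT heart at 54.6 lies among the KO hearts, and for Calr the KO hearts lie at 2739 to 3043, below all WT hearts.

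Among the lists of pathway genes, 3 of 18 genes of MHC transcription were listed in KO, against 8.67% of the symbols of the AAV experiment. Rfx5 was at 108 ± 21.0 normalised counts (SD, n = 4) in KO hearts and 148 ± 9.84 (SD, n = 3) in WT hearts, a difference of -0.46 on the log2 scale (standard error 0.16, edgeR adjusted p = 0.0279), and of -0.32 with upper quartile factors (adjusted p = 0.114). Irf3 had -0.32, and -0.17 with upper quartile factors (adjusted p = 0.193). Rela had -0.18, and -0.04 with those factors (adjusted p = 0.679). Cd274, a ligand that restrains T cells and answers to interferon, had 0.56 (standard error 0.29, edgeR adjusted p = 0.0821). Of the other pathway lists, Psme3 (-0.19), Hspa5 (0.18), Ctsb (-0.22) and Ifngr2 (-0.15) were listed too. With upper quartile factors these were -0.04, 0.33, -0.07 and 0.01. The macrophage markers Cx3cr1 and Fcgr1 were listed, and 12 of 14 were not, with the same 8.67% of symbols listed as background. Cx3cr1 was at 48.7 ± 12.2 normalised counts in KO hearts and 21.4 ± 13.7 in WT hearts (edgeR adjusted p = 0.0279). Fcgr1 was at 23 ± 7.18 in KO hearts and 10.1 ± 3.89 in WT hearts (edgeR adjusted p = 0.0266). The lowest heart had 5.85 normalised counts for each. In libraries of 14978278 to 18959587 reads, these counts of Cx3cr1 are far below its 194 and 199 CPM in the AAV experiment. The reason was not tested. The part of macrophages in the level of Psmb9 was not tested. Set side by side, Psmb9 had a log2 fold change of 0.75 in KO over WT hearts and 0.17 in AAV-CTRP9 over AAV-Luc hearts, and Calr -0.30 and -0.10. The difference between the experiments was not tested.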

How the data were processed

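Per the study's methods, strand-specific mRNA libraries were read in single-end runs of 50 bases, which were trimmed by FastqCleaner, mapped with bowtie2 on mm10 and named through biomaRt. The submitters' processing notes also name DESeq2. The counting tool and tool versions were not given in the sources used here. The AAV table holds the authors' log2 CPM by Ensembl transcript, from which whole reads were recovered within 1e-06 for 100% of values, with a prior count of 1. The KO table holds the deposited raw counts of reads by RefSeq transcript, limited to transcripts with an authors' p-value under 0.05, beside 14 per-sample columns labelled TMM or RPKM that were not used. The deposited signal column, the authors' mean of normalised counts, gave their size factors, and the deposited sum of RPKM gave library totals. The authors' fold changes, scores and p-values were not used, apart from that limit.

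The AAV comparison was fitted by limma 3.58.1 with an intensity trend on log2 CPM over 13219 symbols, and the KO comparison by the quasi-likelihood test of edgeR 4.0.16 with the authors' size factors over 1230 symbols, both 2-sided, adjusted by Benjamini-Hochberg and called at 0.05 (R 4.3.3, DESeq2 1.42.0, Python 3.11.15). Fits were tested on simulated data. The members, lists and rule for named genes were chosen with earlier results of these data known. The rule names the classical and main nonclassical class I genes, the class II chains and chaperones, the transactivators, the immunoproteasome, TAP, Tapbp, Erap1, Ctss and Lgmn, each member listed for KO or at an unadjusted p under 0.05, and the extremes of each role. Roles were assigned after values had been seen, and the 4 sequence patterns were picked from 17 looked for in the members' promoters. Alternatives were other scalings, filters, prior counts, tools, summed transcripts, removal of GC and length trends, and each library left out. Leaving out CTRP9_620 and Luc_624 together and a replicate block for the KO table were chosen after seeing the data. No replicate pair shared more than 2.03% of read counts. Replicates carry different numbers in their labels and were taken as separate mice.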

Additional observations from a re-analysis of the deposited data

Results flagged for a closer look

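Of 35 groups of 4 hearts tested for a single outlying heart, 2 stood out, and chance alone gives about 1 in 20. H2-DMb1 was at 1.26 CPM in CTRP9_611, against 0.956 to 0.99 CPM in the other AAV-CTRP9 hearts, a gap of 0.888 of the group's range. Psmb8 was at 5.77 CPM in CTRP9_610, against 3.15 to 3.51 CPM in the other AAV-CTRP9 hearts, a gap of 0.86 of the range.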

How the results depend on the processing

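As single hearts were left out, the number of members past the threshold in the AAV comparison ranged from 0 to 2. The 2 members passed without Luc_614, where 150 of all 13219 symbols passed, and in the other such fits 0 to 1 of all symbols passed. The number of members at an unadjusted p under 0.05 ranged from 2 to 7, where 748 to 1667 of all symbols were at that level (790 without CTRP9_610, the fit with 7 members). The class II median ranged from -0.58 to -0.16. Under the 9 planned settings other than left-out hearts no member passed, where 0 to 61 of all symbols did. Without both CTRP9_620 and Luc_624, which was tried after seeing the data, 1 member was at an unadjusted p under 0.05, against 1328 of all symbols. The sign then turned for Cd74 (0.0804), H2-Aa (0.137), H2-Ab1 (0.0164), H2-DMa (0.274), H2-Eb1 (0.233), H2-Ke6 (-0.0257), Pdia3 (0.0722), Psmb10 (-0.0496) and Tap2 (0.0487). The class II median was then 0.02, a shift within the spread between hearts (SD 0.45). That spread includes these 2 hearts and is larger than the main median of -0.37, so it cannot show whether the result is stable.

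Other settings also turned signs. Psmb10 was at -0.0411 with library totals, -0.000732 with recomputed TMM factors and -0.00314 with DESeq2. H2-Q6 was at 0.0447 with summed transcripts. With GC and length trends removed, H2-Q6 was at 0.0171, H2-T22 at 0.00633 and Tap2 at 0.0638. As single hearts were left out, the sign also turned within these ranges: Erap1 -0.0517 to 0.26, H2-DMa -0.48 to 0.0235, H2-Eb1 -0.58 to 0.000959, H2-M3 -0.059 to 0.48, H2-Q4 -0.0743 to 0.16, H2-Q6 -0.26 to 0.14, H2-Q7 -0.46 to 0.0297, H2-T22 -0.17 to 0.0897, H2-T24 -0.0643 to 0.19, Pdia3 -0.16 to 0.0812, Psmb10 -0.0913 to 0.0936, Psmb8 -0.34 to 0.0616, Tap1 -0.11 to 0.16 and Tap2 -0.0804 to 0.0345. The cause was not tested.

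In KO, 1 listed member instead of 2 passed with upper quartile factors, where Calr was at -0.15. Of the 1230 listed symbols, 617 then passed instead of 1150. As single libraries were left out, 1 to 2 listed members passed, with Psmb9 at 0.56 to 1.15, and 338 to 933 of the listed symbols did. The labels give no replicate numbers shared between groups, but 3 numbers in the column names of the KO table occur in both. Same-numbered libraries did not deviate together (Pearson r -0.40 to 0.09 over 1191 symbols, a description), and no WT library correlated best with its own number. With that number as a replicate block, tried after seeing the data, 490 listed symbols passed instead of 1150, and Psmb9 (0.86, edgeR adjusted p = 0.0493) and Calr (-0.30, edgeR adjusted p = 0.0459) still passed. Members with few reads, such as H2-DMb1 and H2-M3 (20 to 46 reads per heart), are limited by depth.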
